A study of Rattus norvegicus with 12 samples.

Results

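The genes described are the surface receptors of macrophages and other leukocytes that were measured in rat liver. They were taken by gene name: the CD antigens written as Cd and a number (Cd74 left out), the C-type lectins (Clec), the Toll-like receptors (Tlr), the Fc receptors (Fcgr and Fcer), the scavenger receptors Msr1 and Marco, and the receptors of colony-stimulating factors. Of 106 genes with such a name, 98 had an RPKM (reads scaled to transcript length and mapped reads) above 0 in at least 1 liver, out of 15270 gene names detected in all. A gene with several listed transcripts is represented by the one with the highest mean RPKM. The 8 genes listed at 0 in every liver were Cd177, Cd209e, Clec12b, Clec2d, Clec2dl1, Clec3a, Clec4d and Clec4m. Marco, a further scavenger receptor of Kupffer cells, was not analysed here.

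All 12 animals were female rats of the inbred alcohol-preferring strain iP10a. The 6 EtOH animals chose freely for 23 weeks between water and bottles of 10, 20 and 30% ethanol, and the 6 control animals had water. Livers were taken at 38 weeks of age, with 1 EtOH animal (animal 6) at 39 weeks, and poly(A) RNA from whole tissue was sequenced, 1 library per animal. The comparison asks how free-choice drinking, in animals whose individual intake is not used here, went along with the level of each receptor.

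Kupffer cells are the resident macrophages of the liver. They line the sinusoids, clear bacteria, endotoxin and aged blood cells from portal blood, and carry scavenger receptors, C-type lectins and Fc receptors with which they bind these particles. Toll-like receptors recognise microbial molecules and signal through MyD88 or TRIF, and the receptor of colony-stimulating factor 1 keeps macrophages alive. Alcohol feeding at high dose is known for bringing gut-derived endotoxin to Kupffer cells, through the receptors Cd14 and Tlr4. Many CD antigens are not macrophage markers: Cd63, Cd82 and Cd151 are tetraspanins found on most cells, and Cd302 and Cd164 are broadly expressed.

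The depth was low for rare transcripts. Between 2610238 and 4318141 reads per control liver and between 3945593 and 6030028 per EtOH liver were assigned to listed transcripts, and 0.205 to 0.232% of them fell on the 98 receptors. These were 5693 to 12548 reads per liver, and 73 to 88 of the receptors were above 0 in a given liver. A mean RPKM of at least 10 was reached by 13 receptors, 26 lay between 1 and 10, 44 between 0.1 and 1 and 15 under 0.1. Only 54 were above 0 in all 12 livers, and 19 rested on 10 reads or fewer over all livers. The median depth was 3305920 reads in control and 4302209 in EtOH livers. Read totals per group given below are not adjusted for this.

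Differences were tested with limma on quantile-normalized log2(RPKM + 0.5) over all 21718 transcripts above 0 in at least 1 liver, and an adjusted p under 0.05 made a call. The pseudocount of 0.5 makes the log2 differences of low transcripts smaller than those of the RPKM itself. Of the 98 receptors, 4 were called higher in EtOH livers, where 1.13% of all transcripts were, and 0 were called lower, where 1.29% of all transcripts were. In either direction 2.42% of all transcripts were called. The 4 were Clec4f, Cd163, Cd320 and Cd79a. Of these, Cd79a passed the above-0 filter through EtOH livers alone. In all, 6 of the 98 receptors were at 0 in every control and 1 was at 0 in every EtOH liver. Such receptors entered the counts of this paragraph through 1 group only. With 1 liver left out, 0 to 6 receptors were called, 0 of them without control animal 4 or EtOH animal 1, 3 or 5 and 6 without control animal 6. Without normalization between livers, 1 receptor was called lower (Cd82). At an unadjusted p under 0.05, 17 receptors were higher and 0 were lower, against a background of 8.07% and 7.42% of all transcripts. The log2 difference was positive for 70 of 98 receptors with a median of 0.15, while over all transcripts it was positive for 10867 of 21718 with a median of 0.00. Among the 39 receptors with a mean RPKM of at least 1 it was positive for 32, with a median of 0.33. Over all transcripts at that level it was positive for 5678 of 11086, with a median of 0.0078. In values without any normalization between livers, 78 of 98 receptors and 10153 of 21718 transcripts were positive. The median of the 39 receptors was then 0.22.

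**Figure D1:**
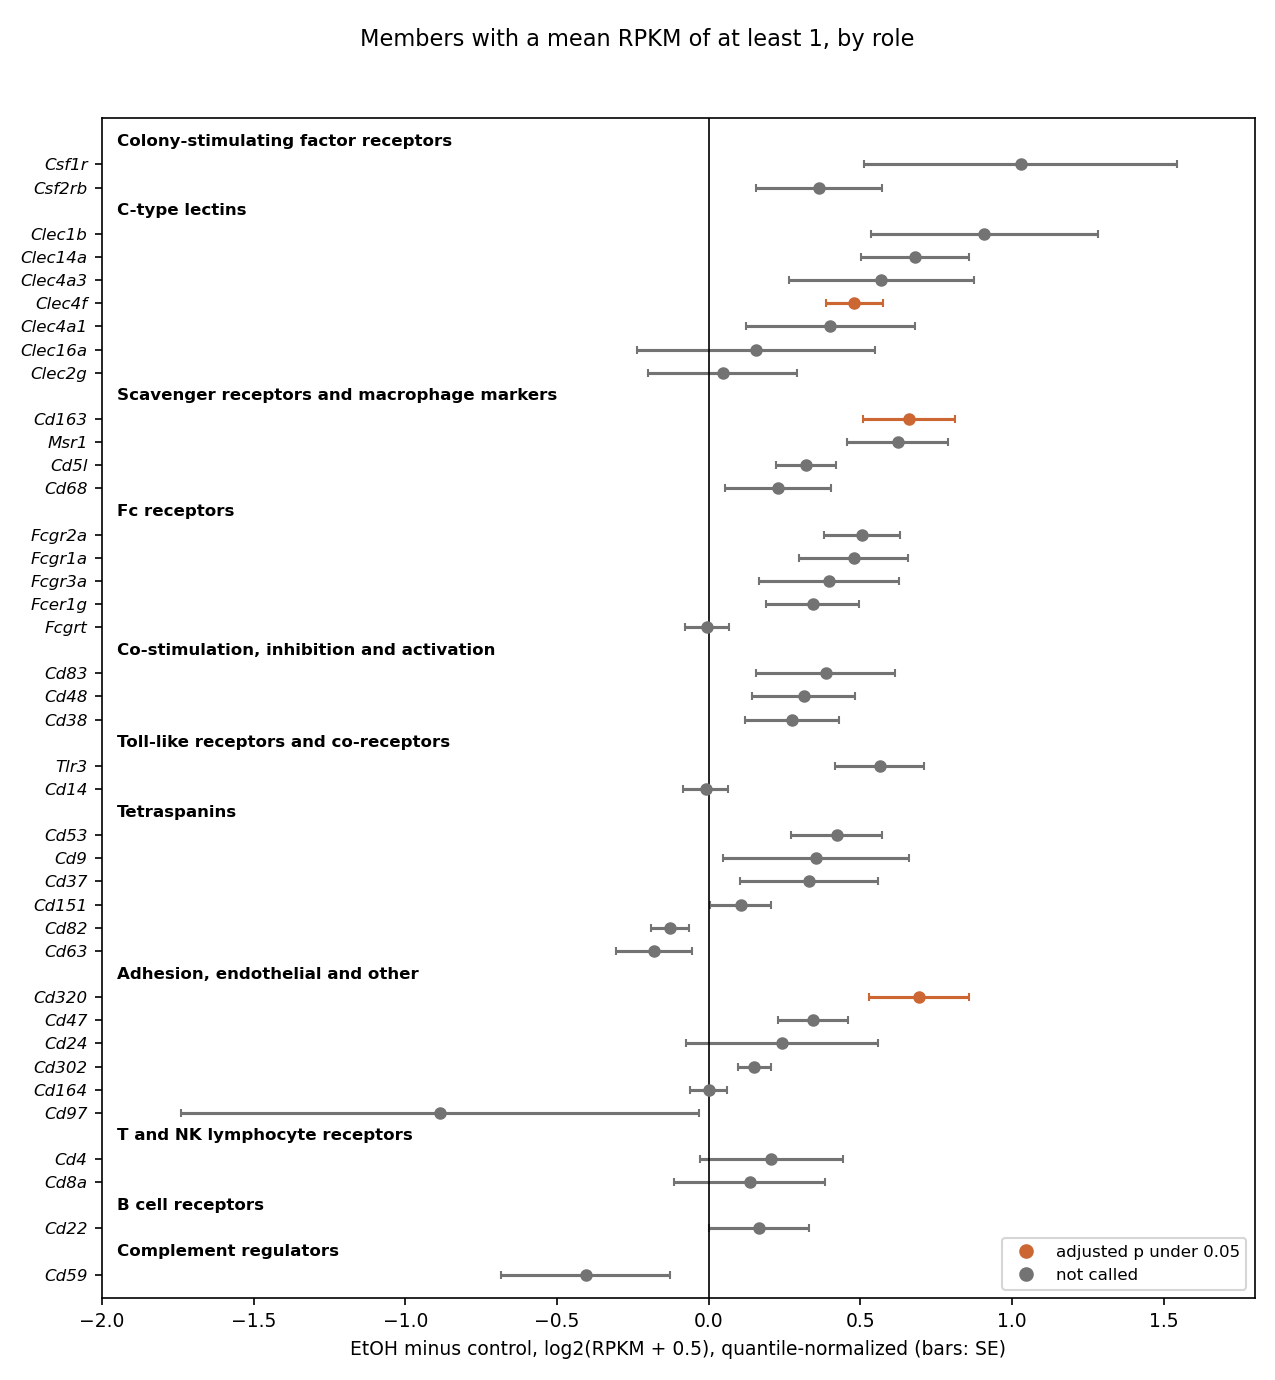
Difference between EtOH and control livers for the 39 receptors with a mean RPKM of at least 1, grouped by role. The x axis is the difference of quantile-normalized log2(RPKM + 0.5), bars are the standard error of the limma fit, and orange points are called. Most points lie right of 0, with Cd63, Cd82, Cd59 and Cd97 among those on the left.

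The C-type lectin Clec4f is a glycan-binding receptor that in rodents is found on Kupffer cells and on hardly any other cell. It had the highest level of the receptors with a Clec name, at 62.9, 55.2, 81.2, 62.6, 58.1 and 78.1 RPKM in control animals 1 to 6 and 87.3, 71.9, 80.9, 83.6, 89.1 and 81.8 RPKM in EtOH animals 1 to 6. Group means were 66.4 ± 10.7 (SD, n = 6) and 82.4 ± 6.06 RPKM (SD, n = 6), a ratio of 1.24. Clec4f rose by 0.48 ± 0.10 (SE) on the log2 scale (limma, adjusted p = 0.025). 4 EtOH livers lay above every control, while the highest control, animal 3, was level with the lower EtOH livers. Clec4f rested on 2873 control and 4934 EtOH reads, so counting error was small. Without normalization between livers the difference was 0.32 and no longer called (adjusted p = 0.090). The call was also lost without control animal 4 or without EtOH animal 1, 3, 4 or 5, at adjusted p of 0.050 to 0.054, and Clec4f was called under 17 of 25 alternatives in all.

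Cd163, the scavenger receptor that takes up haemoglobin bound to haptoglobin, was lower in level but differed more. It lay at 6.75, 4.62, 5.32, 5.63, 7.27 and 7.55 RPKM in the controls and at 12.0, 7.60, 7.99, 10.3, 10.9 and 7.48 RPKM in the EtOH livers. From 6.19 ± 1.17 (SD, n = 6) it rose to 9.38 ± 1.93 RPKM (SD, n = 6), by 0.66 ± 0.15 (SE) on the log2 scale (limma, adjusted p = 0.043). 5 of the 6 EtOH livers were above every control, and EtOH animal 6 was just under the highest control. With the second listed Cd163 transcript added, the groups no longer overlapped, at 5.75 to 7.55 RPKM in controls and 8.29 to 13.6 RPKM in EtOH livers. The adjusted p rose above the threshold, to between 0.056 and 0.090, without any single liver other than control animal 6 or EtOH animal 6. Without normalization it was 0.061, and Cd163 was called under 10 of 25 alternatives in all.

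In the authors' coordinates, whose build the sources used here do not give, Clec4f lies at chr4:117839863-117849615 and Cd163 at chr4:160394833-160428208. Their upstream sequences are shown because these are the called receptors that mark Kupffer cells. Each is the stretch of 250 bases before the gene's start in the RefSeq annotation of build GRCr8, at chr4:117696408-117696657 on the minus strand for Clec4f and chr4:158770524-158770773 on the plus strand for Cd163, written 5′ to 3′ along the gene.
Clec4f: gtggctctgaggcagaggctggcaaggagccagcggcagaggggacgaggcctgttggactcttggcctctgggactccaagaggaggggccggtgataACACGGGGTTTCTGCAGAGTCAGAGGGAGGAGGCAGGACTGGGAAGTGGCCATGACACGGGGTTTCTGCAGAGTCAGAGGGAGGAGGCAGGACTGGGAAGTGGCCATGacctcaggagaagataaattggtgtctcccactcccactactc
Cd163: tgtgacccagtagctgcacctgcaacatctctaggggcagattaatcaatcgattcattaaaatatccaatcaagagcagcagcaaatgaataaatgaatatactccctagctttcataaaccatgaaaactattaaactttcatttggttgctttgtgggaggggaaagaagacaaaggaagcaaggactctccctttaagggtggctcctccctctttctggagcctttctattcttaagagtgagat
Capitals in the Clec4f stretch mark a segment of 54 bases that occurs as 2 adjoining identical copies. A repeat of at least 40 bases occurred in 99 of 27457 upstream stretches (0.361%), and in 1 of the 73 receptors with an entry in that table. The longest such repeat upstream of Cd163 was 8 bases. The motif GAGGAA, a core bound by the myeloid factor PU.1, was searched on both strands and found in neither stretch. It was found in 36 of 73 receptor stretches (49.3%) and in 6379 of 27457 of all (23.2%), a description of letters chosen after the values were seen.

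The remaining scavenger receptors and macrophage markers were not called at this threshold. Msr1, the class A receptor for modified lipoproteins and bacterial surfaces, lay at 4.74, 3.54, 2.88, 4.94, 4.15 and 4.97 RPKM in the controls and at 9.45, 5.54, 6.54, 6.50, 5.25 and 5.02 RPKM in the EtOH livers. It was the only receptor whose EtOH values were all above the controls, a pattern that 0.677% of all transcripts showed. Means were 4.20 ± 0.850 and 6.38 ± 1.63 RPKM (SD, n = 6 each), a difference of 0.62 ± 0.17 (SE) on the log2 scale (limma, adjusted p = 0.075). The two-sided exact permutation test gave p = 0.00216, the smallest that 6 against 6 animals can give, with no adjustment over receptors. This p follows from the lack of overlap and adds nothing to it. With the test kept to transcripts averaging at least 1 RPKM, Msr1 was called (limma, adjusted p = 0.037). With any 1 liver left out it was not called (adjusted p of 0.058 to 0.143), and it was called under 2 of 25 alternatives in all.

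Cd5l, a protein secreted by macrophages that modulates their lipid metabolism, was at 33.9 ± 5.47 and 37.7 ± 4.60 RPKM in control and EtOH livers (SD, n = 6 each). No EtOH liver was above the highest control, and the log2 difference was 0.32 ± 0.10 (SE; limma, adjusted p = 0.12). Cd68, a lysosomal glycoprotein of macrophages in general, was at 10.9 ± 3.75 and 11.2 ± 0.996 RPKM (SD, n = 6 each; adjusted p = 0.61). For the 4 genes of this role the median log2 difference was 0.47, and it was 0.35 without normalization and 0.44 after median scaling, so all 4 were positive under each scaling.

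**Figure D2:**
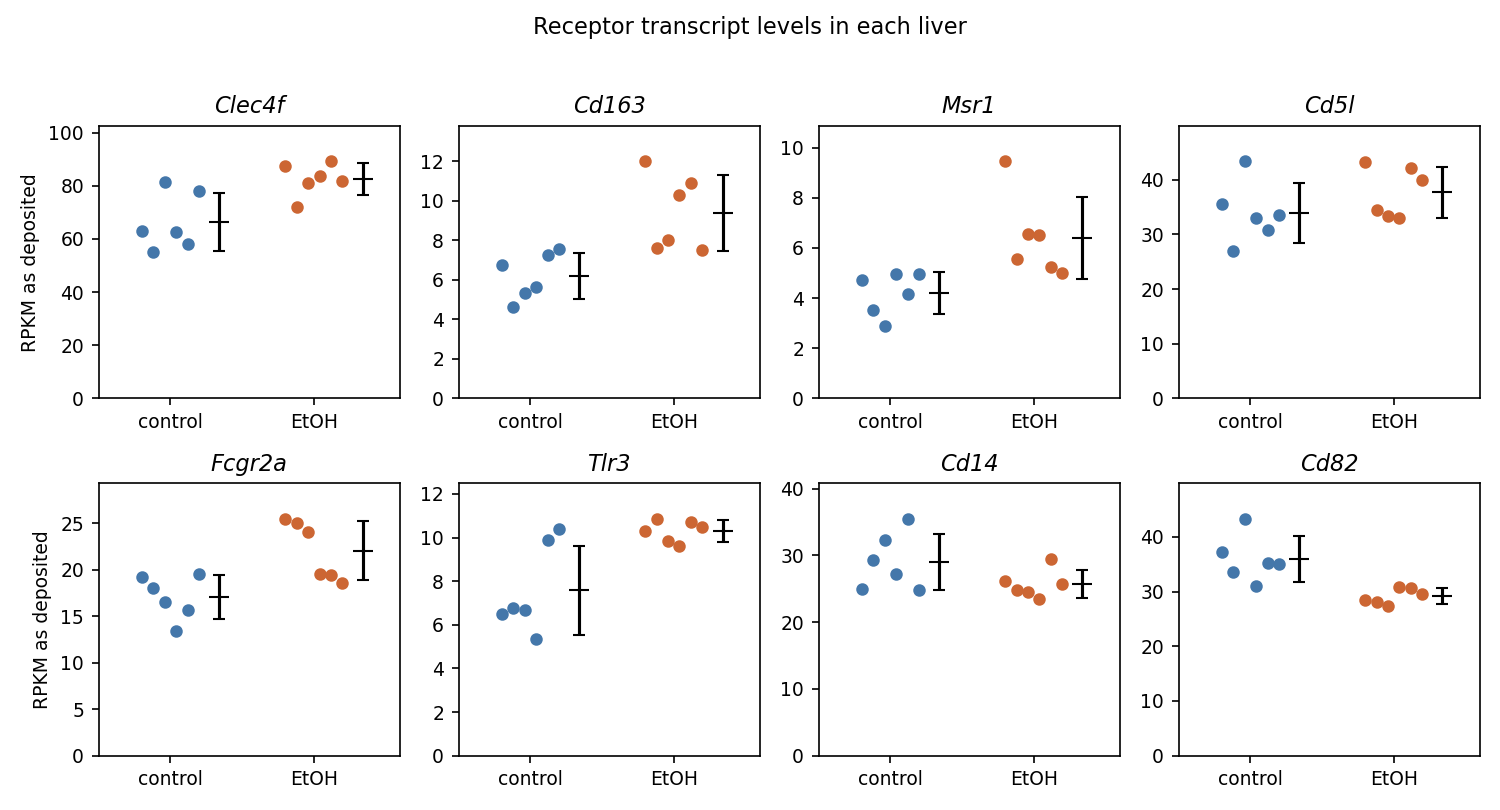
RPKM as deposited of 8 receptors in each liver, control in blue and EtOH in orange, with livers ordered by animal number and the mean ± SD (n = 6) beside them in black. EtOH livers of Msr1 lie above and those of Cd82 below every control, Clec4f and Cd163 overlap slightly, and Cd14 does not lie higher in EtOH livers.

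Fc receptors bind the constant part of antibodies, and 0 of 7 were called by limma. At an unadjusted p under 0.05, 4 were higher (Fcgr2a, Fcgr1a, Fcer1g and Fcer1a). Of these, Fcer1a was at 0 in every control and passed the above-0 filter through EtOH livers alone. Fcgr2a, a receptor of IgG on phagocytes, was nearest to the threshold. Its control values were 13.4 to 19.5 RPKM with a median of 17.3, and its EtOH values 18.6 to 25.5 RPKM with a median of 21.8. The log2 difference was 0.51 ± 0.12 (SE; limma, adjusted p = 0.056), and 4 EtOH livers lay above every control. The table lists 6 transcripts under this name at neighbouring positions on chromosome 13, so reads may be split between near-identical copies and the level of each is uncertain. Their sum was 34.4 ± 3.05 RPKM in control and 43.6 ± 4.05 RPKM in EtOH livers (SD, n = 6 each), and it was called in a fit on summed values (adjusted p = 0.012). That fit, added after the data were seen, sums all rows of a gene name. Fcgr2a was called under 5 of 25 alternatives in all.

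The other Fc receptors of phagocytes were not called but had positive differences. Fcgr1a, the high-affinity IgG receptor, was at 2.75 ± 0.789 and 3.80 ± 0.713 RPKM, and Fcgr3a at 2.76 ± 1.00 and 3.55 ± 0.817 RPKM (SD, n = 6 each). Fcer1g, the signalling chain shared by several of them, was at 11.5 ± 2.46 and 13.4 ± 2.51 RPKM (SD, n = 6 each; adjusted p = 0.31). These 3 are named after their values were seen. Fcgrt is of another kind, carrying IgG and albumin through endothelial cells and hepatocytes, and it was at 57.0 ± 9.13 and 50.3 ± 4.53 RPKM (SD, n = 6 each). 5 EtOH livers lay below every control in deposited values, yet the log2 difference after normalization was −0.01 ± 0.07 (SE; limma, adjusted p = 0.98). The IgE receptors Fcer1a and Fcer2 rested on 4 reads or fewer per group.

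Csf1r, the receptor through which colony-stimulating factor 1 maintains macrophages, shows how the choice of transcript matters. Its row of highest mean had 2.60, 0.216, 4.15, 8.95, 2.87 and 3.32 RPKM in the controls and 5.34, 4.34, 6.83, 5.36, 14.3 and 3.28 RPKM in the EtOH livers. The log2 difference of 1.03 ± 0.51 (SE) was not called (limma, adjusted p = 0.38), and it was 0.60 without control animal 2, the liver at 0.216 RPKM. The table lists 3 Csf1r transcripts over the same span, and their shares changed from liver to liver. In control animal 4 and EtOH animal 5 the whole level stood on the third transcript, and in EtOH animal 4 the second held 10.7 RPKM and the first was listed at 0.

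Summed over the 3 transcripts, Csf1r varied less within groups. The sums were 9.96, 6.45, 10.5, 8.95, 8.5 and 9.94 RPKM in the controls and 16.0, 11.6, 11.3, 16.0, 14.3 and 9.92 RPKM in the EtOH livers. Means were 9.05 ± 1.47 and 13.2 ± 2.60 RPKM (SD, n = 6 each), and in the summed fit Csf1r rose by 0.63 ± 0.15 (SE) on the log2 scale (limma, adjusted p = 0.024). 5 EtOH livers lay above every control and EtOH animal 6 within the range of the controls. The summed fit was the only 1 of 25 alternatives to call Csf1r. The other colony-stimulating factor receptors were low: Csf2rb, the shared beta chain, was at 0.954 ± 0.424 and 1.39 ± 0.517 RPKM, and Csf3r, the granulocyte receptor, rested on 3 control and 9 EtOH reads.

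The same swapping of transcripts was seen for Cd97, an adhesion receptor of leukocytes named after its values were seen. Its row of highest mean was 3.37 ± 2.63 RPKM in control and 1.8 ± 2.24 RPKM in EtOH livers (SD, n = 6 each), a log2 difference of −0.89 ± 0.85 (SE) and the lowest of the receptors with a mean RPKM of at least 1. Control animals 2 and 6 had 0.182 and 0.0750 RPKM in that row and 4.61 and 5.01 RPKM in another row of the same span. The sum of the 4 rows was 5.36 ± 0.714 and 6.03 ± 1.33 RPKM, with a log2 difference of 0.24 (limma, adjusted p = 0.365). For 16 of the 98 receptors more than 1 transcript was above 0.

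**Figure D3:**
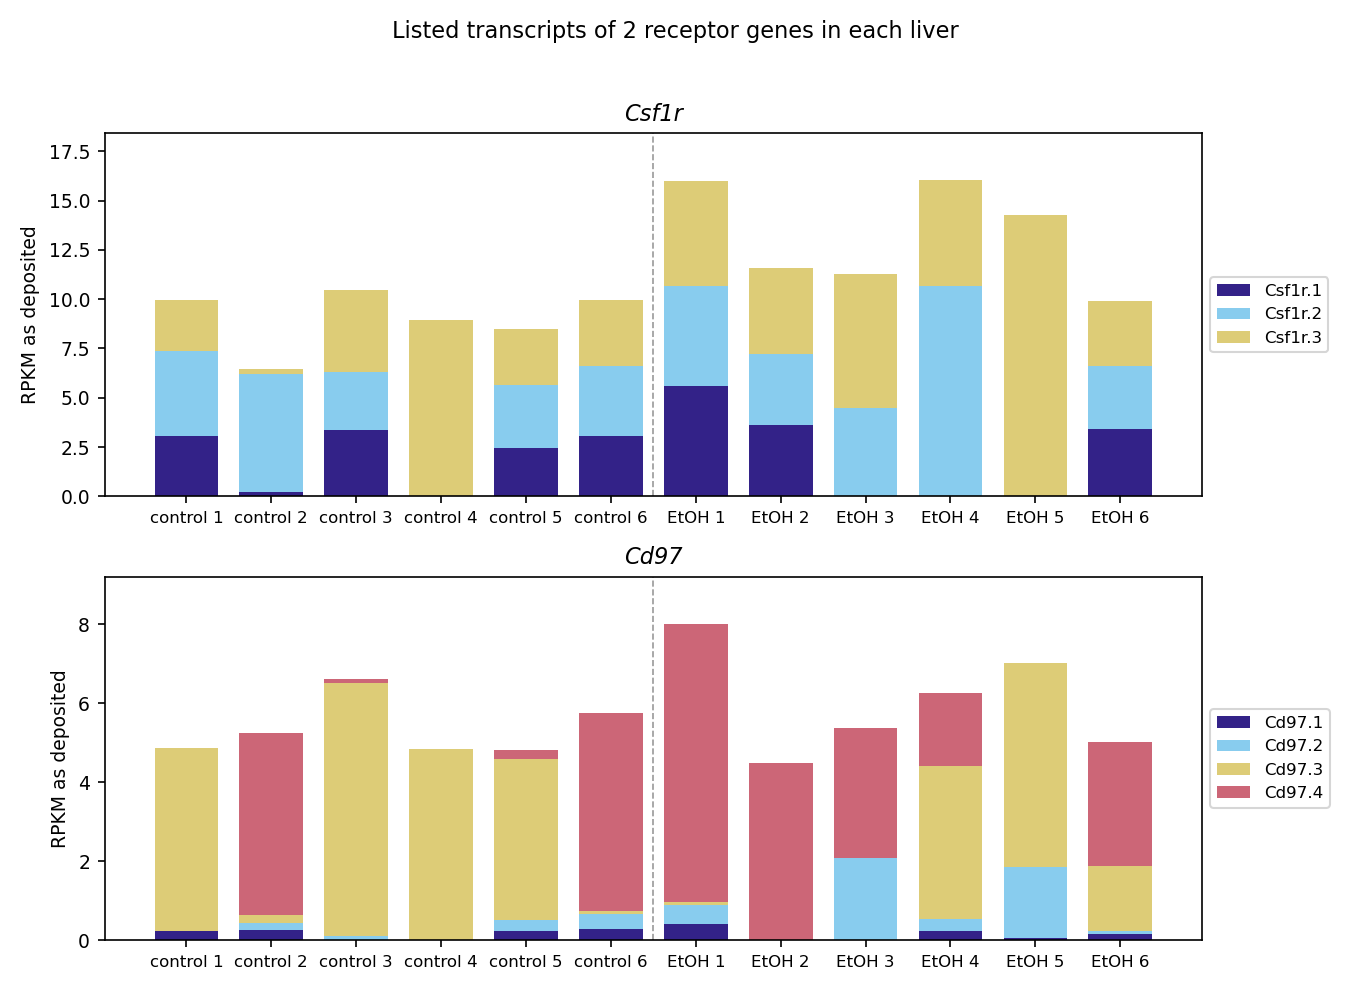
Stacked RPKM of the 3 listed Csf1r and 4 listed Cd97 transcripts in each liver, in colours by transcript, controls left of the dashed line. The colours change places between livers of 1 group while the bar heights vary less, from 6.45 to 16.0 RPKM for Csf1r and 4.48 to 8.0 RPKM for Cd97.

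In the fit on summed values 10 receptors were called higher: Clec4f, Cd163, Msr1, Fcgr2a, Tlr3, Csf1r, Clec14a, Cd47, Cd320 and Cd79a. That fit called 977 of 15270 gene names, so its calls are more frequent among all genes as well. Cd47, the ligand by which cells signal to macrophages not to engulf them, had a sum of 25.2 ± 1.64 and 30.2 ± 5.31 RPKM (SD, n = 6 each), with a log2 difference of 0.40 (limma, adjusted p = 0.042). As a single transcript it was at 19.4 ± 1.49 and 22.6 ± 4.71 RPKM (adjusted p = 0.15). The summed fit was the only 1 of 25 alternatives to call Cd47.

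Of the Toll-like receptors and their co-receptors, 0 of 12 were called by limma and 1 was higher at an unadjusted p under 0.05. The paper lists Tlr13 as higher in ethanol-treated rats, but Tlr13 is not among these 12 and was not analysed here. Tlr3, the sensor of double-stranded RNA, was the highest of the receptors themselves. Its control values were 6.51, 6.76, 6.66, 5.33, 9.88 and 10.4 RPKM and its EtOH values 10.3, 10.9, 9.82, 9.60, 10.7 and 10.5 RPKM. The controls fell into 4 low and 2 high livers, the latter level with EtOH livers, which lay close together. Means were 7.59 ± 2.04 and 10.3 ± 0.498 RPKM (SD, n = 6 each), with a log2 difference of 0.56 ± 0.15 (SE; limma, adjusted p = 0.069). Without control animal 6, the highest control, it was called (limma, adjusted p = 0.014). Without any other single liver it was not called (adjusted p of 0.0565 to 0.137), and Tlr3 was called under 3 of 25 alternatives in all.

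The receptors of endotoxin did not pass the test. Cd14, which hands endotoxin to Tlr4 and is made by macrophages and hepatocytes, was at 24.8 to 35.5 RPKM in the controls and 23.5 to 29.4 RPKM in the EtOH livers. Its means were 29.0 ± 4.24 and 25.7 ± 2.07 RPKM (SD, n = 6 each), and its log2 difference after normalization was −0.01 ± 0.08 (SE; limma, adjusted p = 0.96). Tlr4 was at 0.476 ± 0.258 and 0.757 ± 0.267 RPKM (SD, n = 6 each; adjusted p = 0.48), on 37 control and 77 EtOH reads. All 6 EtOH livers were above the control median, but only 1 was above every control.

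The Toll-like receptors for bacterial lipoproteins and single-stranded RNA were as low. Tlr1 was at 0.666 ± 0.220 and 1.04 ± 0.337 RPKM, Tlr2 at 0.538 ± 0.359 and 0.670 ± 0.149 RPKM, Tlr6 at 0.916 ± 0.236 and 0.925 ± 0.262 RPKM and Tlr7 at 0.50 ± 0.156 and 0.732 ± 0.239 RPKM (SD, n = 6 each). Their adjusted p were 0.48, 0.72, 0.96 and 0.58. Of the genes that carry the signal of Toll-like receptors, such as Myd88 and the Irak kinases, 0 of 19 were called, with 1 higher and 1 lower at an unadjusted p under 0.05. The summed level of these 19 genes was 174 to 201 RPKM in control and 180 to 193 RPKM in EtOH livers.

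Among the remaining C-type lectins, 0 of 17 were called by limma, with 2 higher at an unadjusted p under 0.05 (Clec14a and Clec1b). Clec14a is a lectin of endothelial cells and not of macrophages, and was listed among endothelial markers. It was at 4.91 ± 1.33 and 7.54 ± 1.57 RPKM (SD, n = 6 each), with 5 EtOH livers above every control and a log2 difference of 0.68 ± 0.18 (SE; limma, adjusted p = 0.070). Clec1b, the receptor of podoplanin on Kupffer cells and platelets, was at 1.21 ± 0.787 and 2.44 ± 0.824 RPKM (SD, n = 6 each; adjusted p = 0.26), on 23 control and 65 EtOH reads. Clec9a and Clec10a, lectins of dendritic cells and macrophages, had log2 differences of 0.06 and −0.03. Clec4e and Clec5a, lectins of activated myeloid cells, rested on 2 reads each over all livers, too few for any comparison. The lectins of this paragraph were named after their values were seen.

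Cd320, 1 of 2 called receptors outside the macrophage groups, takes up transcobalamin with vitamin B12. Its control values were 7.41, 5.53, 11.7, 5.75, 6.30 and 7.65 RPKM and its EtOH values 11.9, 9.03, 12.9, 9.70, 9.41 and 13.1 RPKM. It rose from 7.39 ± 2.29 to 11.0 ± 1.84 RPKM (SD, n = 6 each), by 0.69 ± 0.16 (SE) on the log2 scale (limma, adjusted p = 0.049). Control animal 3 lay among the EtOH livers, all other controls below them. The call was lost without any single liver other than control animal 3 or 6, at adjusted p of 0.067 to 0.10. It was also lost without normalization (adjusted p = 0.086), after median scaling (0.051), at a pseudocount of 1 (0.050), on square-root values (0.053), without a trend (0.061) and with voom (0.057), and Cd320 was called under 7 of 25 alternatives in all. Cd320 lies at chr7:16338136-16343892 in the authors' coordinates.

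Cd79a, a signalling chain of the B cell receptor, was called on very few reads. All 6 controls were at 0, and the EtOH livers had 2, 2, 3, 0, 1 and 1 reads, 9 in all, or 0.433 ± 0.271 RPKM (SD, n = 6). With the control group set to a floor of 3 reads, the EtOH level would be 2.19 times that of the controls, the 9 EtOH reads being taken as exact. The limma test of the log2 difference, not of this ratio, gave an adjusted p of 0.039. The call was lost without any single liver other than EtOH animal 4, at adjusted p of 0.057 to 0.083, and Cd79a was called under 11 of 24 alternatives in all. Its partner Cd79b had 4 control and 3 EtOH reads. Cd79a lies at chr1:80189436-80193462. Cd22, a B cell inhibitory receptor that was the highest of its role, was at 1.22 ± 0.194 and 1.47 ± 0.288 RPKM (SD, n = 6 each; adjusted p = 0.66).

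Receptors of T and NK lymphocytes were low, and 0 of 16 were called by limma, with 1 higher at an unadjusted p under 0.05. Cd4, which rat macrophages carry as well as helper T cells, was the highest at 4.78 ± 1.56 and 5.28 ± 1.74 RPKM (SD, n = 6 each; adjusted p = 0.69). Cd6, a T cell adhesion receptor, had the smallest p of this role, with 0.0973 ± 0.119 and 0.316 ± 0.130 RPKM on 7 control and 32 EtOH reads (limma, adjusted p = 0.24). The chains of the T cell receptor complex had log2 differences of −0.50 for Cd3d, 0.02 for Cd3e and 0.18 for Cd3g, each on 25 reads or fewer per group. Of the 15 receptors of co-stimulation, inhibition and activation 0 were called and 0 had an unadjusted p under 0.05, with Cd48, a leukocyte adhesion molecule, the highest at 6.03 ± 1.62 and 6.95 ± 0.991 RPKM (SD, n = 6 each; adjusted p = 0.43).

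Several abundant receptors did not lie higher in EtOH livers. Cd82, a tetraspanin of most cells, was at 37.2, 33.6, 43.3, 30.9, 35.3 and 35.1 RPKM in the controls and at 28.4, 28.1, 27.4, 30.8, 30.7 and 29.5 RPKM in the EtOH livers. Every EtOH value was below every control, a pattern of 1 of 98 receptors and 2.43% of all transcripts. The two-sided exact permutation test gave p = 0.00216, which follows from that lack of overlap and adds nothing to it. After normalization the log2 difference was only −0.13 ± 0.06 (SE) and not called (limma, adjusted p = 0.35), while without normalization it was −0.29 and called lower (adjusted p = 0.048). Cd63, the tetraspanin of late endosomes, was at 70.3 ± 15.4 and 54.8 ± 8.76 RPKM (SD, n = 6 each), a log2 difference of −0.18 ± 0.13 (SE; limma, adjusted p = 0.55). Control animal 3 was the highest liver for both.

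The other tetraspanins were not called. Cd53, a tetraspanin of leukocytes, was at 3.55 ± 0.569 and 4.71 ± 0.949 RPKM (SD, n = 6 each), a log2 difference of 0.42 ± 0.15 (SE; limma, adjusted p = 0.18). Cd151, an integrin partner of epithelial and endothelial cells, was at 24.6 ± 2.56 and 23.9 ± 2.95 RPKM (adjusted p = 0.65). Its log2 difference turned from 0.11 to −0.04 without normalization. Of the complement regulators, Cd59, which blocks the membrane attack complex, was at 8.0 ± 3.98 and 5.30 ± 1.78 RPKM (SD, n = 6 each; adjusted p = 0.54).

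The most abundant receptor was Cd164, a sialomucin, at 360 ± 16.3 and 336 ± 17.2 RPKM (SD, n = 6 each; adjusted p = 0.997). Cd302, a lectin-type receptor, followed at 132 ± 8.20 and 132 ± 7.98 RPKM. Its group means were equal as deposited, and its log2 difference was 0.15 ± 0.05 (SE) after normalization and 0.00 before it (limma, adjusted p = 0.195 after normalization). Such shifts follow the level of a transcript. Over all 3817 transcripts averaging at least 10 RPKM the median log2 difference was −0.14 in values as deposited, −0.05 after median scaling and 0.00 after quantile normalization. Differences of abundant receptors are therefore relative to other transcripts of like level.

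**Figure D4:**
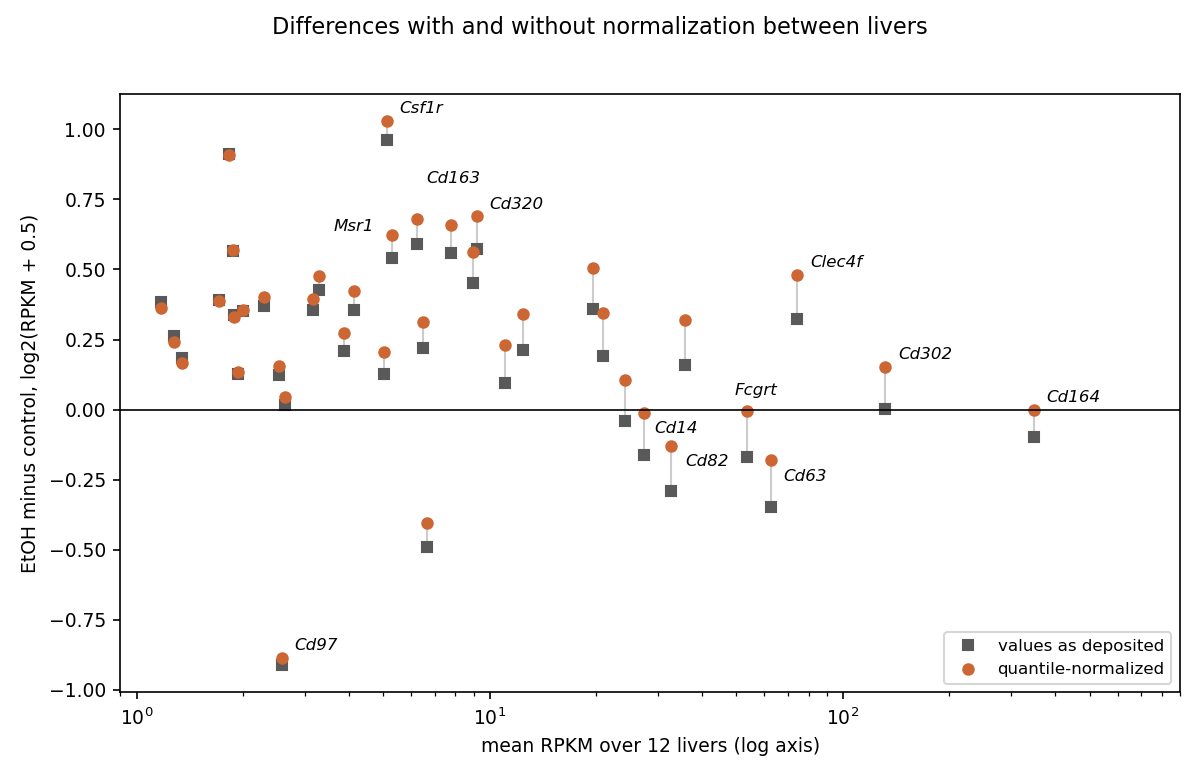
Difference between EtOH and control livers on the scale of log2(RPKM + 0.5) against mean RPKM (log axis) for the 39 receptors with a mean RPKM of at least 1, as deposited (grey squares) and after quantile normalization (orange circles). The gap between the symbols is small for receptors near 1 RPKM and wider for abundant ones, such as Clec4f (0.32 and 0.48) and Cd82 (−0.29 and −0.13).

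Kupffer cell genes that carry no receptor name of the rule were compared beside them. Of 13 such genes, 2 were called higher and 11 had a positive log2 difference. At an unadjusted p under 0.05, 7 were higher and 1 (Hmox1) was lower. Over all transcripts 1.13% were called higher, and 8.07% and 7.42% were higher and lower at that p. Vsig4, the complement receptor of Kupffer cells, rose from 16.3 ± 1.23 to 20.3 ± 0.979 RPKM without overlap (SD, n = 6 each; limma, adjusted p = 0.0034). Folr2, a folate receptor of resident macrophages, rose from 2.55 ± 0.491 to 4.17 ± 0.570 RPKM (SD, n = 6 each; adjusted p = 0.026). The complement component C1qb was at 28.4 ± 4.56 and 34.2 ± 4.39 RPKM (adjusted p = 0.060). Hmox1, the haem-degrading enzyme, stood on the other side at 23.1 ± 4.14 and 16.7 ± 1.64 RPKM (SD, n = 6 each; adjusted p = 0.12). C1qb and Hmox1 are named after their values were seen. Over the 22 Kupffer genes measured, 9 of them receptors above, the summed level was 400 to 520 RPKM in control and 471 to 541 RPKM in EtOH livers, and the ranges overlapped. In whole liver, more cells of a type and more RNA per cell cannot be told apart.

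Markers of some other cell types also lay mostly higher in EtOH livers, and their part in the results was not tested. Endothelial genes had a positive difference in 9 of 9, 1 of them called (Cdh5, the cadherin of endothelial junctions, from 3.78 ± 0.510 to 5.08 ± 0.545 RPKM, adjusted p = 0.049), with sums of 54.6 to 66.0 RPKM in control and 63.3 to 96.7 RPKM in EtOH livers. Stellate cell genes were positive in 9 of 10, 1 of them called (Col3a1, a fibrillar collagen, adjusted p = 0.039), with sums of 29.4 to 36.0 and 33.2 to 54.9 RPKM. Of 14 leukocyte genes outside the rule 2 were called, the integrin Itgal, which rose from 2.44 ± 0.427 to 4.22 ± 0.616 RPKM (SD, n = 6 each; adjusted p = 0.020), and the actin-bundling Lcp1 (adjusted p = 0.048). Their summed level was 105 to 124 and 120 to 146 RPKM. B and plasma cell genes, 1 of 7 called (Cd79a), summed to 1.87 to 3.59 RPKM in control and 3.71 to 6.45 RPKM in EtOH livers. Without Cd79a, which entered the list through EtOH livers alone, the EtOH sums were 3.03 to 5.78 RPKM and the ranges overlapped (a check added after the data were seen). Ms4a1 was also at 0 in every control and stayed in these sums. The joining chain Igj was at 0.898 ± 0.317 and 1.92 ± 0.469 RPKM (adjusted p = 0.078).

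Other lists had few calls or none. Monocyte and neutrophil genes had 0 of 12 called and 0 at an unadjusted p under 0.05, with sums of 7.95 to 11.8 and 8.51 to 16.5 RPKM, and the neutrophil granule genes Mpo and Elane were listed at 0 in every liver. T cell genes had 0 of 11 called and 1 higher at an unadjusted p under 0.05 (4.92 to 8.40 and 6.13 to 9.2 RPKM). NK cell genes had 0 of 8 called and 0 at that p (4.51 to 6.67 and 5.32 to 8.28 RPKM). Dendritic cell genes had 0 of 8 called, with 1 higher and 1 lower at that p (1.88 to 3.92 and 2.75 to 6.30 RPKM), and mast cell genes 0 of 5, with 1 higher (0.574 to 2.06 and 0.991 to 2.41 RPKM). The higher gene was Siglech in the dendritic list and Fcer1a in the mast cell list. Both were at 0 in every control, so they entered their lists and sums through EtOH livers alone. So did Tpsab1 among mast cell genes and Il8rb among monocyte and neutrophil genes. Bile duct genes had 0 of 4 called and 0 at that p (4.37 to 8.27 and 3.90 to 7.87 RPKM). Hepatocyte genes had 1 of 7 called, the urea cycle enzyme Cps1 (adjusted p = 0.022), at sums of 70504 to 99093 and 79990 to 106475 RPKM. The kinases and adaptors that carry the signal of Fc receptors and lectins had 0 of 10 called and 0 at that p (26.8 to 44.1 and 31.6 to 39.8 RPKM). Of 3 detected ligands of the receptors 1 was called, the Fc receptor ligand Crp, which rose from 4763 ± 333 to 5706 ± 681 RPKM (SD, n = 6 each; adjusted p = 0.044).

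**Figure D5:**
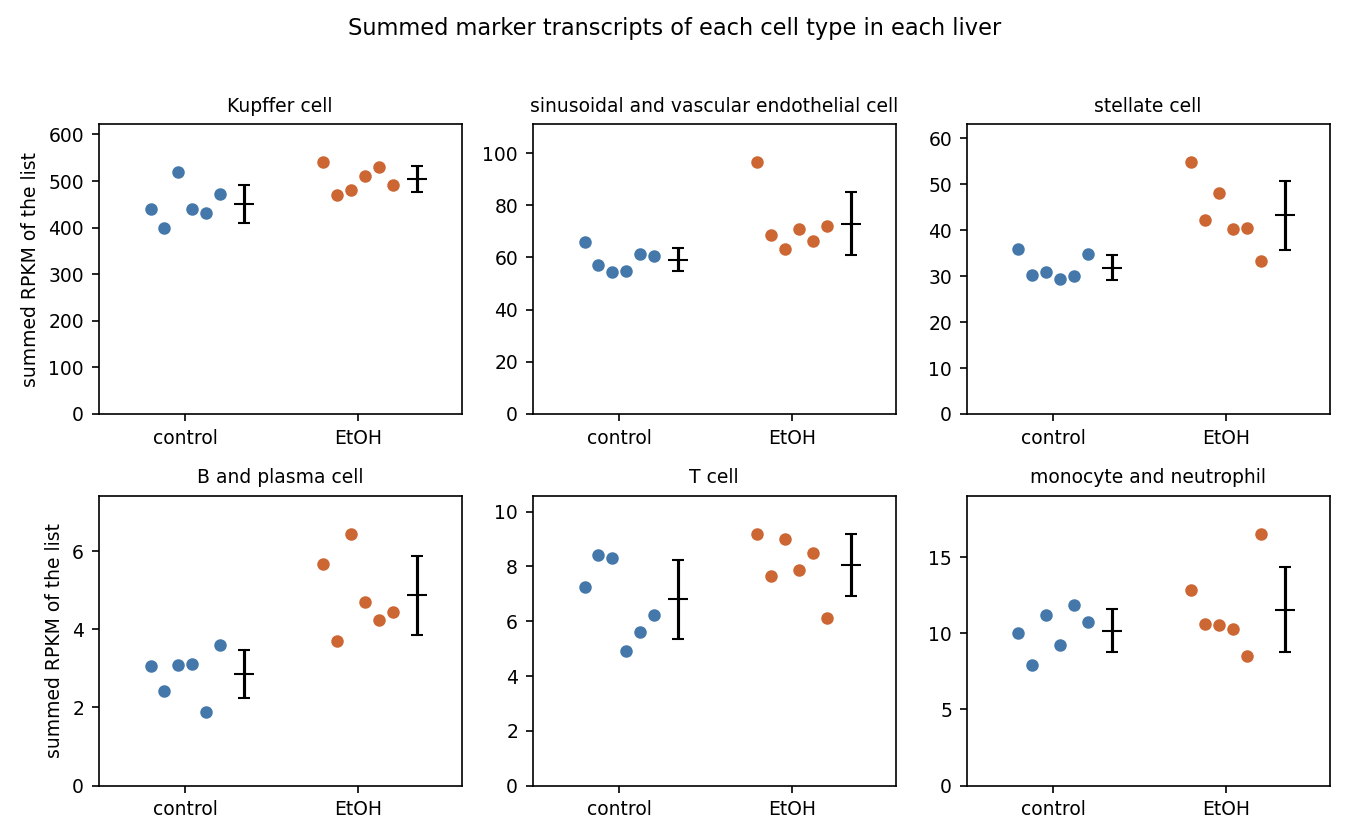
Summed RPKM of the marker genes of 6 cell types in each liver, control in blue and EtOH in orange, with the mean ± SD (n = 6) in black. Groups overlap for Kupffer, endothelial, stellate, T cell and monocyte and neutrophil genes. For B and plasma cell genes the sums reach 3.59 RPKM in control livers and start at 3.71 RPKM in EtOH livers, a gap that is not there without Cd79a.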

How the data were processed

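Livers were snap-frozen, poly(A) RNA was made into 1 library per animal, and all 12 barcoded libraries were sequenced together in a single lane as 101-nucleotide paired-end reads. The authors made the deposited RPKM values with CLCbio Genomics Workbench 4.9 (the submitters' processing notes), 1 value for each transcript and liver, not transformed further. The sources used here do not give the genome build. The deposited table also has columns of the authors' own comparison (fold, test value, p and FDR), which were not used. RPKM is not a count, so log2(RPKM + 0.5) was quantile normalized and compared with limma 3.58.1 (R 4.3.3), using a mean-variance trend and Benjamini-Hochberg adjustment over all 21718 transcripts above 0. The study's methods use a test on square-root values, which was run as an alternative. Whole reads, recovered from the RPKM steps for all 21718 transcripts within 0.01 read, gave the depth and a voom alternative. They are the smallest whole numbers that fit the ratios between livers, so read counts of sparse transcripts are lower bounds. Transcripts on few reads carry a wide counting error. Single values were compared with exact permutation tests on RPKM. Figures were made with Python 3.11.15 and matplotlib 3.10.9, and the fit was tested on simulated data.

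The receptors, role groups, 15 marker and pathway lists and tests were chosen with earlier results of these data known. Of 177 list symbols 21 were not matched and are not analysed here, among them Marco, Timd4, Adgre1 and Mrc1. Receptors are named if they were called, did not overlap between groups at a mean RPKM of at least 0.5, are Kupffer cell markers, are Toll-like receptors at that level, are among the 10 most abundant, or have the highest level or smallest p of their role. Alternatives were pseudocounts of 0.1 and 1, no normalization, median scaling, square-root values, only transcripts averaging 0.1 or 1 RPKM or more, a block by animal number, a fit with no trend, voom, each liver left out and, added after the data were seen, summed rows of a gene name. Groups are the labelled treatments. The animals are separate individuals, and no other batch is labelled.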

Additional observations from a re-analysis of the deposited data

Results flagged for a closer look

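In 9 of 58 groups of 6 values (29 named receptors in control and in EtOH livers) 1 liver stood apart from the rest by a gap wide for the group's range (Dixon's criterion), where chance flags about 1 in 20 groups. Control animal 3 was the high liver in 4 of them: Cd320 at 11.7 RPKM with the next control at 7.65, Cd63 at 99.9 with the next at 70.2, Fcgrt at 74.9 with the next at 58.5, and Tlr2 at 1.25 with the next at 0.489. Control animal 6 stood high for Cd22, at 1.6 RPKM with the next at 1.21. EtOH animal 1 stood high for Msr1, at 9.45 RPKM with the next at 6.54, and for Tlr4, at 1.27 with the next at 0.787. EtOH animal 5 stood high for the single Csf1r transcript, at 14.3 RPKM with the next at 6.83. EtOH animal 6, the one aged 39 weeks, stood low for Cd68, at 9.21 RPKM with the next at 11.3.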

How the results depend on the processing

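The main comparison called 526 transcripts and 4 receptors higher. Without normalization between livers 1 receptor was called higher (Cd79a) and 1 lower (Cd82), and 83.7% of all 774 calls were lower, against 53.4% in the main comparison and 63.5% after median scaling. The pooled test on square-root values, re-run here after the study's methods, called 322 transcripts (56.5% lower) and 1 receptor (Clec4f). These counts are not those that the paper reports. Without its quantile step that test called 1 receptor (Cd79a), and 82.2% of all its calls were lower. Restricted to a mean RPKM of at least 1, 860 transcripts and 7 receptors were called, and without a trend 2 receptors. Summed rows of a gene name, added after the data were seen, gave 977 and 10. The pseudocounts, the 0.1 minimum, limma on square-root values, median scaling and voom gave 3 to 5 receptors. Leaving out 1 liver gave 212 to 656 calls and 0 to 6 receptors, with 0 without control animal 4 or EtOH animal 1, 3 or 5, and 0 called lower throughout. There were 212 to 298 calls without control animal 2 or 4 or EtOH animal 2, 3, 4 or 5. Without control animal 1, 2, 3 or 5 or EtOH animal 2 or 4, 1 or 2 receptors were called, and 6 without control animal 6. Fcgr2a was called without control animal 6 (adjusted p = 0.038) or EtOH animal 6 (0.046). The cause of these differences was not tested.

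The animal number as a replicate block gave 113 calls and 1 receptor, Cd320. Livers sharing a number correlated at −0.068 to 0.038 in their deviations, 0 of 6 pairs over 0.1. Of the controls, 1 of 6 correlated best with its own number. This check showed no sign of pairing by number, but low correlations cannot exclude it.

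For the 29 named receptors, 626 values under alternatives kept direction and call, 54 lost a call (4 genes), 13 gained one (6 genes) and 25 changed sign (5 genes), all of the last near 0 and none called. Cd151 changed to −0.0423 without normalization and −0.0715 in the pooled square-root test with no quantile step. Tlr6 changed to 0.00593, 0.0665 and 0.00346 without normalization, after median scaling and in that pooled test, and Cd164 to 0.00389 with summed rows. With 1 liver left out, log2 differences ranged from −0.0482 to 0.0415 for Cd14, −0.0419 to 0.0258 for Cd164, −0.0434 to 0.0486 for Fcgrt and −0.119 to 0.0464 for Tlr6.

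Depth limits the rare receptors, since 59 of 98 had a mean RPKM under 1.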
